A study of Homo sapiens with 4 samples.

Results

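A set of 10 plasma membrane amino acid carriers was followed in HCC1954 cells, a HER2-amplified human breast cancer line. The genes were chosen by symbol from the gene table, which lists 58735 genes, and all 10 were in it: SLC7A5, SLC3A2, SLC1A5, SLC1A4, SLC38A1, SLC38A2, SLC7A1, SLC7A2, SLC7A8 and SLC6A14. The cystine carrier SLC7A11 was left out of the set and is given beside it. The study asked how loss of ZDHHC15, an enzyme that attaches palmitate to cysteines of other proteins, affects breast cancer cells, and total RNA was sequenced from 2 samples that received a scrambled short hairpin RNA (named shCON) and from 2 whose hairpin targets ZDHHC15 (named shZDHHC15). All are of the same line, without further treatment. The submitters speak of a stable knockdown in one field and of plasmids transfected transiently, with harvest at 36 h, in another. Whether the 2 shZDHHC15 samples are repeat cultures or carry different hairpins is not said, so the p-values below measure only the spread between these samples, which may be technical.

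Amino acids cross the plasma membrane through several kinds of carriers. Among them are exchangers, which let an amino acid in only as another leaves, and concentrative importers driven by sodium, and tumour cells use both of these together. SLC7A5 (LAT1) exchanges large neutral amino acids such as leucine and works only as a disulfide-linked pair with the heavy chain SLC3A2 (CD98hc). SLC1A5 (ASCT2) exchanges glutamine and other small neutral amino acids, SLC38A1 and SLC38A2 load the cell with such substrates, SLC7A1 carries arginine and lysine, and SLC6A14 (ATB0,+) concentrates both neutral and cationic amino acids.

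Of the 10 genes, 9 passed the filter on low counts, 1 was higher in shZDHHC15, 4 were lower and 4 were not called at an edgeR adjusted p of 0.05. Among all 15817 genes tested, 42.0% were called, 21.7% as higher and 20.3% as lower. SLC6A14 rose 6.69-fold, whereas SLC3A2, SLC7A5, SLC1A5 and SLC7A1 fell, with log2 fold changes from -0.89 to -0.32. The median log2 fold change of the 9 carriers was -0.32 against 0.02 over all genes, and the median size of the difference, regardless of sign, was 0.34 against 0.37. With 9 genes tested, 5 calls make up 55.6%, and nothing is read from that share beside the background. In RNA of whole cultures, fewer cells of a type and less RNA per cell cannot be told apart.

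The knockdown and the libraries were examined first. The 2 controls held 17617 and 15716 counts of ZDHHC15 and both shZDHHC15 samples held 0. This is at least 6047-fold lower when 3 counts per library are taken as the detection floor. The paper reports that monoclonal cultures were screened for hairpins, and whether these samples come from single clones is not said. If they do, a difference between clones cannot be told apart from an effect of the hairpin. Total counts ranged from 17560982 to 19118704 per library, and the floor came to between 0.153 and 0.178 CPM, the usual unit of counts scaled to a common library size. Of 8 epithelial markers, 6 were lower and 1 was higher. Their summed level was 19442 and 20975 CPM in shCON and 11719 and 11941 CPM in shZDHHC15, with KRT8 and KRT18 falling by 1.62 and 1.58 on the log2 scale. ERBB2, which is amplified in this line, stayed abundant at 92598 to 101910 counts in every sample. Markers of other cell types summed to far less than the epithelial list. Of 9 leukocyte markers, 4 had 0 counts in all samples, among them CD3E, and the 1 that was tested was higher, with a log2 fold change of 1.61. The leukocyte list summed to 0.986 and 0.947 CPM in shCON and to 2.09 and 1.83 CPM in shZDHHC15. The fibroblast list summed to 26.1 to 33.0 CPM in shCON and 36.9 to 41.0 CPM in shZDHHC15, and the endothelial list to 57.0 and 57.1 CPM and to 107 and 101 CPM. Of the 3 endothelial markers tested, PECAM1 and CDH5 were higher, with log2 fold changes of 2.91 and 0.65, and KDR was lower at -0.64. The part of these shifts in the carrier results was not tested.

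The promoters of SLC6A14, SLC3A2 and SLC7A5 are shown. These are the carrier that rose, the carrier that fell most and the carrier with the most counts of the set. Each run is the 250 bases before a RefSeq transcription start on GRCh38.p14, written 5′ to 3′ on the gene's strand. Capitals mark TGAGTCA, the letters bound by AP-1 factors, in SLC6A14 and, on the opposite strand, in SLC3A2, and CACGTG, the E-box letters bound by MYC and related factors, in SLC7A5.
SLC6A14, chrX:116436356-116436605, plus strand: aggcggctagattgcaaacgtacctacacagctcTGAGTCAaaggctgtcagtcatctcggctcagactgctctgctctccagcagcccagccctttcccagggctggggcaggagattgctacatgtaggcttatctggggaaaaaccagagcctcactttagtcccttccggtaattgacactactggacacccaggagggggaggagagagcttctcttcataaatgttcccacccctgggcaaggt
SLC3A2, chr11:62881449-62881698, plus strand: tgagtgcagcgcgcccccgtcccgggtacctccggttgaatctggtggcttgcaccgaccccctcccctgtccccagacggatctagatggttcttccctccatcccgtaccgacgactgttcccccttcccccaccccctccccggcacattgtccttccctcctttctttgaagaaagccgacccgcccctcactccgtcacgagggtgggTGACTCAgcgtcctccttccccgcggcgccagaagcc
SLC7A5, chr16:87869508-87869757, minus strand: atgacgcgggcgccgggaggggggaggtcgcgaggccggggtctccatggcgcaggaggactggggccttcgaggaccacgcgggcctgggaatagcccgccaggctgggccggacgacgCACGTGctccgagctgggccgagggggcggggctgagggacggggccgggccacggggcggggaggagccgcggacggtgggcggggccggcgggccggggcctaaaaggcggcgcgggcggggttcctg
The SLC7A5 stretch was the richest in G and C at 79.6%, with 34 CpG dinucleotides, against 54.8% and 4 CpG in SLC6A14 and 65.6% and 19 CpG in SLC3A2. RefSeq lists 3 starts for SLC3A2, and of their promoters only the one shown held TGAGTCA on either strand. Counts per gene do not tell which start was used. Over windows from 250 bases before to 50 after the start, for the 9 carriers in the promoter table, TGAGTCA on either strand was found in 3 of 18 promoters, of SLC6A14 (first base at -216, counted from the start), SLC38A1 and SLC3A2, and in 4.95% of 35116 promoters in the table. CACGTG was found in 3 of the 18, of SLC7A5, SLC7A8 and SLC1A5, and in 7.26% of all promoters. GGAATG, the letters bound by TEAD factors, the DNA partners of YAP, was found in 1 of the 18, of SLC1A5, and in 14.0% of all promoters. The letters TGATGNAAT, as in amino acid response elements bound by ATF4, were in 0 of 18 carrier promoters and in 0.991% of all. With the last base left free they were in 5 of the 18, of SLC1A4, SLC1A5, SLC38A1, SLC3A2 and SLC7A1, and in 3.61% of all. A match describes letters only, and the lack of a match says nothing about a factor.

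The levels of the 10 carriers spanned from undetected to among the most abundant transcripts of the cells. Levels between genes are given per length, as RPKM, which is CPM divided by the gene's exon length in kilobases as the table gives it. In shCON, SLC7A5 stood first at 387 ± 10.1 RPKM (SD, n = 2), followed by SLC3A2 at 290.1 ± 26.5 and SLC1A5 at 123 ± 6.68. These 3 genes made up 42.5%, 31.9% and 13.6% of the summed level of the set, and SLC7A5 ranked 75th among protein-coding genes. SLC38A2 at 50.2, SLC7A1 at 34.6 and SLC38A1 at 20.4 RPKM formed a middle tier whose samples did not overlap from gene to gene. SLC6A14 at 2.27 and SLC1A4 at 2.26 RPKM could not be ordered, since their samples overlapped. SLC7A2 stood at 0.225 RPKM and SLC7A8 had no counts. In shZDHHC15 the order was the same from SLC7A5 to SLC38A1, but SLC6A14 at 15.2 ± 2.10 RPKM now overlapped with SLC38A1 at 16.9 ± 0.793 RPKM, above SLC1A4 at 2.12 RPKM. The order and the shares of the sum depend on the length used. The table's length for SLC3A2, 5178 bases, joins the exons of 23 transcripts, while its longest transcript has 2222 bases, and with the latter SLC3A2 (676 RPKM in shCON) stood above SLC7A5 (405 RPKM). With the longest transcripts the overlaps were also gone, since SLC1A4 (2.51 to 2.91 RPKM) stood above SLC6A14 (2.12 to 2.42 RPKM) in shCON and SLC38A1 (20.3 to 21.7 RPKM) above SLC6A14 (13.8 to 16.7 RPKM) in shZDHHC15. Fold changes within a gene do not depend on length.

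SLC6A14 was the carrier that rose. It lies on chromosome X, positions 116436622 to 116461458 on the plus strand (hg38), and encodes a sodium- and chloride-coupled importer with a broad substrate range that is known to be raised in several carcinomas. It received 200 and 162 counts in shCON and 1409 and 1222 counts in shZDHHC15, or 2.42 and 2.12 RPKM against 16.7 and 13.8 RPKM. Both shZDHHC15 samples stood far above both shCON samples, and the gap was much wider than the spread within either group. The log2 fold change was 2.74 with a standard error (SE) of 0.141 and a 95% confidence interval of 2.44 to 3.04 (edgeR adjusted p = 1.34e-09). Leaving out each sample in turn gave values from 2.59 to 2.87, each of them called. No other gene overlapped its exons in the annotation.

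The heavy chain SLC3A2 had the largest decrease of the set, ahead of its partner SLC7A5. SLC3A2 (chromosome 11, 62856102 to 62888875, plus strand) encodes the glycoprotein that brings several light chains to the cell surface and also binds integrins. It received 25649 and 27007 counts in shCON and 14463 and 16686 in shZDHHC15, which is 271 and 309 RPKM against 149.8 and 164 RPKM. The groups did not overlap, and the lower shCON sample was still well above the higher shZDHHC15 sample. SLC3A2 fell by 0.89 on the log2 scale (SE 0.0932, 95% confidence interval -1.09 to -0.69, edgeR adjusted p = 3.46e-06), and the value was between -1.01 and -0.80 with any single sample left out.

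SLC7A5 (chromosome 16, 87830023 to 87869488, minus strand), the main leucine exchanger of many tumours, received 32905 and 31589 counts in shCON and 24418 and 28037 in shZDHHC15. In RPKM this was 379.8 and 394 against 276 and 301. The samples of the groups did not overlap, and the gap within shZDHHC15 was wider than that within shCON. SLC7A5 fell by 0.42 on the log2 scale, or 25.5% (SE 0.0859, 95% confidence interval -0.61 to -0.24, edgeR adjusted p = 0.00113). Its exons overlap those of the antisense gene AC126696.2, which had 1 to 6 counts per sample, and a stretch of 345 bases is near-identical to the pseudogene SMG1P3, which had 31 to 60 counts, and how the counting split reads between such genes is not given in the sources used here.

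SLC7A8 (LAT2, chromosome 14, 23125295 to 23183674, minus strand), another light chain of SLC3A2 whose substrates overlap with those of SLC7A5, was at the edge of detection. It had 6 and 3 counts in shZDHHC15 and 0 counts in both controls. It was left out of the test by the filter on low counts. Its mean shZDHHC15 level, 0.237 CPM, was 1.39-fold the shCON floor of 3 counts per library, 0.171 CPM. This rests on the first shZDHHC15 sample at 0.322 CPM, since the second, at 0.153 CPM, lay under that floor. When SLC7A8 was tested without the filter, the adjusted p was 0.119.

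The small neutral amino acid exchangers SLC1A5, which also carries glutamine, and SLC1A4 are close relatives, and the abundant member was lower. SLC1A5 (chromosome 19, 46774883 to 46788594, minus strand) received 7221 and 7212 counts in shCON and 5721 and 6013 in shZDHHC15. This was 119 and 128 RPKM against 92.1 and 91.8 RPKM, so that both shZDHHC15 samples lay below both shCON samples and nearly coincided. SLC1A5 fell by 0.42 on the log2 scale (SE 0.0880, 95% confidence interval -0.61 to -0.24, edgeR adjusted p = 0.00136). Exon positions of SLC1A5 are also annotated on the opposite strand, among others for AC008622.2 with 0 to 3 counts, and the strand setting of the counting is not given in the sources used here. SLC1A4 (ASCT1, chromosome 2, 64988477 to 65023865, plus strand) received 265 and 285 counts against 268 and 296, and the groups overlapped. Its log2 fold change was -0.09 with a 95% confidence interval of -0.40 to 0.22 (edgeR adjusted p = 0.654).

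SLC38A1 and SLC38A2, the sodium-coupled importers of glutamine and alanine, lie close to each other on chromosome 12 on the minus strand, at 46183063 to 46270017 and 46358189 to 46372867. SLC38A1 received 4161 and 3068 counts in shCON and 3264 and 3220 in shZDHHC15, or 22.8 and 18.1 RPKM against 17.5 and 16.4 RPKM. Its groups did not overlap, but the first shCON sample stood well above the other 3. The log2 fold change was -0.27 (SE 0.109, 95% confidence interval -0.51 to -0.04) and missed the threshold (edgeR adjusted p = 0.0554). It was -0.44 with an adjusted p of 0.000145 without the second shCON sample and -0.13 without the first, so the value rests on which control is used. SLC38A2, which is known to be induced when amino acids are scarce, received 6407 and 5261 counts in shCON and 7060 and 6897 in shZDHHC15. Its samples overlapped between groups at 47.2 to 53.2 RPKM against 53.1 to 57.3 RPKM, and its log2 fold change was 0.14 (95% confidence interval -0.06 to 0.34, edgeR adjusted p = 0.252). It was 0.20 without the first shCON sample and 0.044 without the second, and it was called in neither fit.

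The carriers of arginine and lysine were SLC7A1 (CAT1) and SLC7A2 (CAT2). SLC7A1 (chromosome 13, 29509410 to 29595688, minus strand) received 4978 and 4383 counts in shCON and 4012 and 4142 in shZDHHC15, or 35.4 and 33.7 RPKM against 28.0 and 27.4 RPKM. Within each group the samples lay close together and the groups did not overlap. SLC7A1 fell by 0.32 on the log2 scale (SE 0.0886, 95% confidence interval -0.51 to -0.13, edgeR adjusted p = 0.00916). With only the second or only the first shZDHHC15 sample in the fit the value was much the same, -0.34 and -0.31, but the adjusted p was 0.0669 and 0.0849. SLC7A2 (chromosome 8, 17497088 to 17570573, plus strand) had 40 and 23 counts in shCON and 26 and 28 in shZDHHC15. The first shCON sample stood above the other 3, and at this depth the difference could not be fixed, with a log2 fold change of -0.34 and a 95% confidence interval of -1.10 to 0.42.

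**Figure D1:**
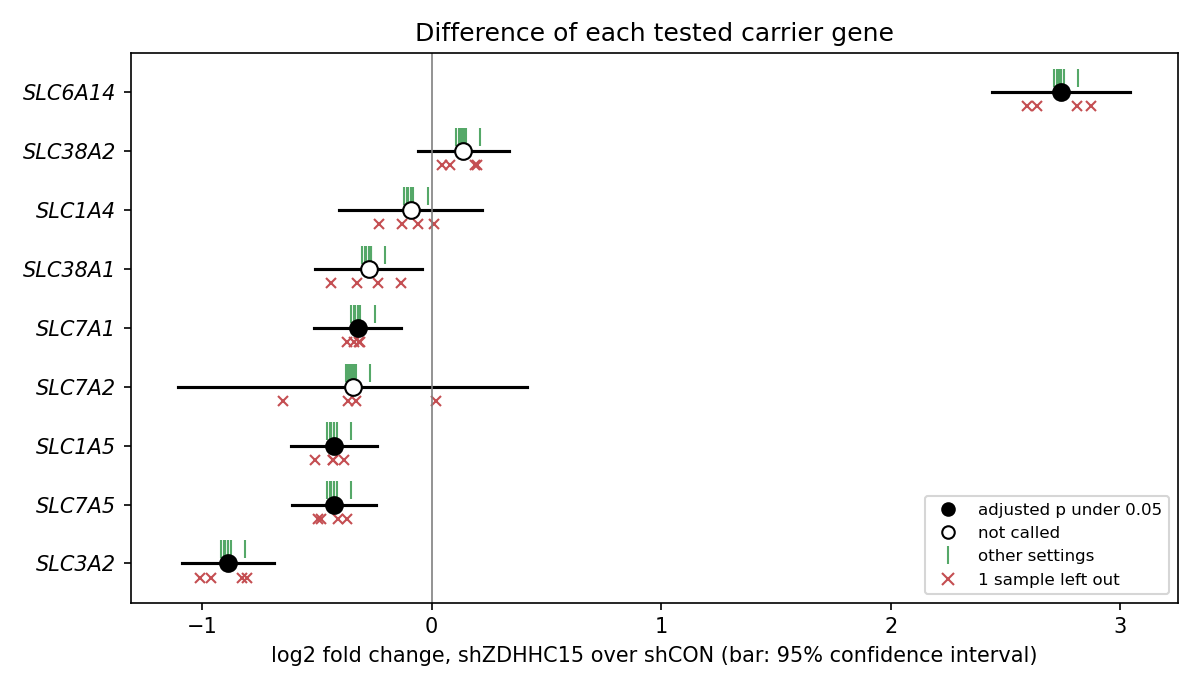
log2 fold change of shZDHHC15 over shCON (horizontal axis) for the 9 carriers tested, with 95% confidence intervals as bars, filled points for an adjusted p under 0.05 and open points otherwise. Green ticks are the values under the other settings tried and red crosses those with 1 sample left out. SLC6A14 stands apart at 2.74, and 4 genes from SLC3A2 at -0.89 to SLC7A1 at -0.32 are called lower.

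In all, the shZDHHC15 and shCON samples did not overlap for 6 of the 9 tested carriers, while 72.5% of all tested genes did not overlap (37.2% with shZDHHC15 higher and 35.3% with it lower). The summed level of the 10 carriers was 886 and 935 RPKM in shCON and 639.6 and 669 RPKM in shZDHHC15. With 2 samples against 2, the exact two-sided permutation test cannot go below p = 0.333, the value it gave here. SLC6A14 rose from 0.25% to 2.33% of the sum, SLC3A2 went from 31.9% to 24.0%, and SLC7A5 took 42.5% and 44.0%. These shares depend on the length used. With the longest transcripts they were 0.17% and 1.66% for SLC6A14, 49.8% and 39.9% for SLC3A2, and 29.8% and 32.9% for SLC7A5.

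Ratios between related carriers within a sample, which do not depend on the scaling of the libraries, were compared for 5 pairs. The log2 ratio of SLC7A5 to SLC3A2 was 0.49 and 0.35 in shCON and 0.88 and 0.87 in shZDHHC15, a difference of 0.46. Light chain thus stood higher relative to heavy chain in both shZDHHC15 samples than in either control. The sign of this ratio depends on the gene lengths used, while the difference between the groups does not. The log2 ratio of SLC1A4 to SLC1A5 was -5.82 and -5.72 in shCON and -5.47 and -5.40 in shZDHHC15, and that of SLC38A1 to SLC38A2 was -1.22 and -1.38 against -1.71 and -1.70. Neither pair's groups overlapped. For these 3 pairs the exact two-sided permutation test gave p = 0.333, the smallest it can give with these samples, and 0.417 adjusted over the 5 pairs. SLC7A2 to SLC7A1 was -6.98 and -7.58 in shCON and -7.28 and -7.22 in shZDHHC15, with the shZDHHC15 samples between the controls (exact permutation p = 1.0). SLC7A8 to SLC7A5 was among the 5 pairs of the adjustment, with 0.5 counts added to each gene as in all pairs. No ratio is given for it, since SLC7A8 had no counts in shCON.

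SLC3A2 serves 6 light chains, and of the 4 tested, 2 were lower and 1 was higher. With 4 genes tested these calls make up 75.0%, against 42.0% of all genes, and nothing is read from that share. SLC7A11, the cystine and glutamate exchanger that feeds glutathione synthesis, received 221 and 122 counts in shCON and 519 and 471 in shZDHHC15. The first shCON sample lay well above the second, but both were far below the shZDHHC15 samples, and the log2 fold change was 1.41 (SE 0.188, edgeR adjusted p = 3.41e-05), with values from 1.08 to 1.81 when a sample was left out. SLC7A6, a relative that exchanges cationic for neutral amino acids, received 944 and 784 counts against 723 and 724 and fell by 0.38 on the log2 scale (edgeR adjusted p = 0.0137, and 0.0978 without the second shZDHHC15 sample). Its exons share 3373 bases with SLC7A6OS on the opposite strand, which had 292 and 291 counts in shCON and 178 and 217 in shZDHHC15, and the decreases of the 2 genes cannot be told apart where reads of the shared stretch are counted without strand. SLC7A7 had 10 to 19 counts and SLC7A10 0 to 2 counts in any sample. SLC7A5 made up 98.1% of the summed RPKM of the 6 light chains in shCON and 97.3% in shZDHHC15, so the rise of SLC7A11 left the sum lower, at 395 ± 9.34 against 296 ± 16.9 RPKM (exact permutation p = 0.333, the smallest possible).

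Beyond the 10 genes, 30 other plasma membrane carriers of amino acids were listed, and 11 were tested. Against 42.0% called among all genes tested, 63.6% of these 11 were called, 3 higher and 4 lower. Their median log2 fold change was -0.01 and had no settled sign, at -0.13 without the first shCON sample, 0.14 without the second and 0.22 among genes with at least 10 counts in every sample. SLC43A2 (LAT4), which lets branched-chain amino acids and phenylalanine pass without exchange, rose by 1.33 on the log2 scale, from 39.6 ± 1.04 to 99.7 ± 7.23 CPM (edgeR adjusted p = 1.79e-07). SLC1A3, a glutamate and aspartate importer, fell by 0.47 (edgeR adjusted p = 0.0038, and 0.0837 without the second shZDHHC15 sample). SLC43A1 (LAT3) fell by 0.41 (edgeR adjusted p = 0.0475), a call lost without the second shCON sample (0.229) and without either shZDHHC15 sample (0.0578 and 0.237). Without the second shZDHHC15 sample, 4 carriers of this list were called in place of 7. SLC38A5, singled out after its values were seen, was scarce at 19 and 29 counts in shCON and fell to 3 and 4 counts. Of 8 lysosomal carriers tested, 3 were higher and 5 were not called, a share of 37.5% called against 42.0% of all genes. SLC15A3, which exports histidine and small peptides from lysosomes and endosomes, rose from 1.74 to 27.3 CPM, a log2 fold change of 3.97 (edgeR adjusted p = 1.17e-09), and SLC38A9, the arginine-gated carrier that signals to mTORC1, rose by 0.47 (edgeR adjusted p = 0.036). The SLC38A9 call was lost without the first shCON sample (0.161) or either shZDHHC15 sample (0.146 and 0.0873), and without the first shZDHHC15 sample 1 lysosomal carrier, SLC15A3, was called. Of 10 mitochondrial carriers tested, 2 were lower and 8 were not called. SLC25A38, a glycine importer, fell by 0.66 and SLC25A22, a glutamate carrier, by 0.43 on the log2 scale (edgeR adjusted p = 0.000168 and 0.00689, the latter 0.0871 without the first shZDHHC15 sample, where 1 mitochondrial carrier was called).

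The genes that respond to amino acid shortage, a program driven by the transcription factor ATF4, had more calls lower than higher. Of 26 tested, 12 were lower, 3 were higher and 11 were not called, with a median log2 fold change of -0.22. That is 57.7% called, against 42.0% of all genes tested, of which 20.3% were lower and 21.7% higher with a median of 0.02. ATF4 itself, named after its values were seen, received 11389 and 11146 counts in shCON and 5768 and 6142 in shZDHHC15, and fell by 1.05 on the log2 scale (SE 0.0868, edgeR adjusted p = 2.93e-07). The groups did not overlap, and the samples within each group lay close together. ATF3, a stress-induced transcription factor, fell by 1.69 and CTH, the enzyme that makes cysteine from cystathionine, fell by 1.59. The genes that rose were the lipoprotein receptor VLDLR (log2 fold change 1.79), the mTORC1 inhibitor DDIT4 (1.03), which also responds to other stresses, and the transcription factor CEBPB (0.89), the last named after its value was seen. SLC7A5, SLC3A2, SLC1A5 and SLC7A1 are counted as members only and not in this list.

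Of 18 enzymes that use the carried amino acids and were tested, 5 were higher and 3 lower, or 44.4% called against 42.0% of all genes. Their median was -0.06, which turned to 0.11 without the filter on low counts. IDO1, which degrades tryptophan, rose from 9.99 ± 0.0263 to 102 ± 29.8 CPM (log2 fold change 3.35, edgeR adjusted p = 2.56e-09). NOS2, which makes nitric oxide from arginine, had 1 count in each shCON sample and 128 and 138 counts in shZDHHC15, a ratio of 122 with an exact 95% interval of 33.4 to 1013 that covers counting error only. ODC1, the first enzyme of polyamine synthesis from ornithine, fell by 1.38 on the log2 scale, from 129 to 49.3 CPM (edgeR adjusted p = 1.58e-07), and GOT1, the cytosolic aspartate aminotransferase, fell by 0.48. Among 20 aminoacyl-tRNA synthetases, 4 were higher and 3 lower, or 35.0% called. WARS, which charges tRNA with tryptophan and is known to be induced by interferon, rose from 133 to 455 CPM (log2 fold change 1.78, edgeR adjusted p = 8.20e-09), well beyond EPRS at 0.35, while FARSA and VARS fell by 0.56 and 0.37. Without the first shZDHHC15 sample, 2 synthetases were called in place of 7, and the adjusted p of EPRS was 0.144 and that of VARS 0.0983, while EPRS had an adjusted p of 0.0805 without the second shCON sample.

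Of 32 tested genes that sense amino acids for mTORC1, 8 were higher and 5 were lower, with a median of -0.05. That is 40.6% called, near the 42.0% of all genes tested. The Ragulator subunits LAMTOR4 and LAMTOR1, which hold the Rag GTPases on the lysosome, fell by 0.75 and 0.59 on the log2 scale (edgeR adjusted p = 5.83e-05 and 0.000136). RRAGD, a Rag GTPase, rose by 0.98 and SESN1, a sestrin of the leucine-sensing family, by 0.82 (edgeR adjusted p = 0.000114 and 0.0205). Without the first shZDHHC15 sample, 8 genes of the list were called in place of 13 and the adjusted p of SESN1 was 0.291. Of 9 tested regulators of carrier transcription or turnover, 3 were higher and 5 lower. With 9 genes tested these calls make up 88.9%, and nothing is read from that share. YAP1 fell by 2.81 on the log2 scale (edgeR adjusted p = 4.30e-11) and MYC, a known activator of SLC7A5 and SLC1A5, went from 660 ± 32.9 to 354 ± 46.1 CPM, falling by 0.90 (edgeR adjusted p = 6.18e-06). HIF1A, the oxygen-sensing factor, rose by 0.66 and TFEB, a lysosomal regulator, by 0.69 (edgeR adjusted p = 0.000219 and 0.0267, the latter 0.222 without the first shCON sample and 0.0918 without the first shZDHHC15 sample). Whether any of these genes acted on the carriers was not tested.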

How the data were processed

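RNA of HCC1954 cells was sequenced from 2 shCON and 2 shZDHHC15 samples. The authors deposited read counts per gene, not normalized, with gene lengths. Per the submitters' notes HISAT2, StringTie and SAMtools were used on hg38. The counting tool and its strand setting are not given in the sources used here. All 58735 genes matched GENCODE release 29, and the length is the union of exons. Total counts ranged from 17560982 to 19118704.

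The counts were tested with edgeR 4.0.16 (R 4.3.3) by the quasi-likelihood test on the 15817 genes that passed filterByExpr, with TMM scaling, also used for CPM and RPKM, and Benjamini-Hochberg adjustment over all of them. Genes were called at an adjusted p under 0.05. The floor of 3 counts per library covers counting error only. In counts simulated for this comparison (15439 genes), 200 genes were given a log2 change of 1.5 and 85.5% of them were recovered, with 3.93% of calls false. The carriers called lower changed by less, from -0.89 to -0.32, and 42.0% of genes were called in the data. Recovery under those conditions was not simulated. Replicates differed by more than sampling noise (chi-square per degree of freedom 8.32 and 6.79).

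Named genes were the 10 carriers, ZDHHC15, the other SLC7 partners of SLC3A2 and, from each list, the 2 largest rises and 2 largest falls that were called and averaged 100 counts or more in either group. Cell type markers are named outside this rule, as checks of the cells, and other genes outside it are marked in the text. The carriers and lists were chosen with earlier results of these data known, and the E-box, AP-1 and TEAD motifs were added after the data had been seen. Alternatives were other scalings (DESeq2 1.42.0 size factors, upper quartile, library size alone), other filters on low counts, the older quasi-dispersion, a replicate block, a test against a fold change of 1.2, the DESeq2 Wald test, each sample left out and the longest transcript as length. Promoters were those of RefSeq (GRCh38.p14), and near-identical stretches (at least 150 bases, 97% identity) were found with blastn 2.17.0.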

Additional observations from a re-analysis of the deposited data

How the results depend on the processing

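SLC6A14, SLC3A2, SLC7A5 and SLC1A5 kept their direction and their call in all 9 other settings and in all 4 fits with a sample left out, in which the carriers called higher numbered 1 and those called lower 3 to 5. SLC7A1 was called in 8 of the 9 settings and lost its call in the test against a fold change of 1.2 (adjusted p = 0.237). SLC38A1 was called with DESeq2 size factors (-0.29, adjusted p = 0.0441), with upper-quartile scaling (-0.30, adjusted p = 0.0315) and with the replicate block (-0.27, adjusted p = 0.0145). With the replicate block 3723 genes were higher and 3502 lower, but same-numbered samples share only a number (correlation of their deviations 0.0821 over 15817 genes). With a sample left out, SLC7A2 ranged from -0.64 to 0.020, the latter without shCON 1, and SLC1A4 from -0.23 to 0.0090, the latter without shCON 2. Without a filter on low counts, 2282 genes were called higher in place of 3427, 8 in place of 13 genes of amino acid sensing for mTORC1 and 5 in place of 8 regulators. With scaling to library size alone, 4 in place of 2 mitochondrial carriers were called, the share of calls that were higher was 60.7% in place of 51.6%, the median of all genes was 0.09 and those of the enzymes and of amino acid sensing both turned to 0.02. Leaving out a sample gave 4 to 7 calls among other plasma membrane carriers, 1 to 3 among lysosomal and 1 to 3 among mitochondrial carriers, 2 to 8 among synthetases and 8 to 18 in amino acid sensing. The looser ATF4 letters matched 5 promoters in place of 0. The causes of these shifts were not tested. In fits with a sample left out, the lone sample is assumed to vary like the other group. SLC7A2 and SLC7A8, with at most 40 counts, are limited by depth.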
